A study of Mus musculus with 9 samples.

Results

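The Reg family of secreted lectins was measured by RNA-sequencing in organoids of normal mouse small intestine and in tumoroids. Its members were the 6 genes Reg1, Reg2, Reg3a, Reg3b, Reg3g and Reg4, taken by symbol and not by any measured value from a table of 50600 genes. All 6 were present in the table. In the tumoroids Reg3b and Reg3g were higher, and Reg1 and Reg3a lower, than in either group of organoids. Between the organoid groups, which differed in the conditioned medium they had received, Reg1 had the largest fold change of the family.

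Regenerating islet-derived (Reg) proteins are small C-type lectins that are released by epithelial cells. In the small intestine, REG3B and REG3G are made by enterocytes and Paneth cells and help to keep bacteria away from the epithelium, REG3G by binding the peptidoglycan of Gram-positive bacteria. Transcription of their genes is known to be induced by interleukin-22 and cytokines of the IL-6 family through STAT3, and by microbial sensing through Toll-like receptors. Reg1 and Reg2 were first studied in the regenerating pancreas, and REG4 marks secretory and enteroendocrine cells of the gut.

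The study exposed organoids of wildtype mice to medium conditioned by wildtype organoids (WT-cM) or by tumoroids (T-cM), to ask how tumour cells act on normal epithelium through secreted factors. The 6 organoid libraries came from WT small intestine of 3 mice, recorded as strain C57BL/6 in the labels, although the study's methods give a mixed background for all mice, and were kept for 24 hr after passage in conditioned medium mixed in equal parts with concentrated organoid medium. By those methods, organoids came from young adult mice and tumoroids from older ones, and tumours near the ampulla were left out. The 3 tumoroid libraries came from intestinal tumours of 3 Apc1638N/+ mice of mixed strain (labelled MIX), left untreated. Each of the 3 groups therefore held 3 libraries. Apc1638N/+ mice carry 1 mutated copy of Apc in all tissues and form tumours spontaneously. The labels give an organoid medium with EGF, Noggin and R-spondin 1 for all libraries, whereas the study's methods describe tumoroids kept without R-spondin. Tumoroids thus differed from organoids in genotype, donor, age, strain as labelled, conditioned medium and possibly R-spondin, and these cannot be told apart.

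For the 6 organoid libraries the titles and the treatment field name opposite media. Groups were named by the titles, as T-cM-titled organoids or WT-cM-titled organoids, and each direction given between them reverses should the treatment field be right. The comparison of tumoroids with either organoid group keeps its direction under both labels. The libraries held 16541635 to 25170966 counted reads each. Levels are given in CPM, the read counts scaled to the normalised size of each library, and 3 counts, the limit used for detection, stood for 0.103 to 0.204 CPM. Levels of different genes were compared per length, in TPM, in which the authors also divided by gene length, or where stated in CPM per kilobase. The cell type field names epithelial cells. In the 6 organoid libraries the summed level of 8 enterocyte markers was 14866 to 29104 CPM, that of 6 immune markers at most 5.52 CPM, with Cd3e at 0, and that of 6 mesenchymal markers at most 1.00 CPM. In the tumoroids these sums were 380 to 555, 7.70 to 27.1 and 2.38 to 46.7 CPM. In such bulk RNA, fewer cells of a type and less RNA per cell cannot be told apart.

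Of the 6 members, 5 lie side by side on chromosome 6, in a block of 98.2 kb (chr6:78370657-78468872, GRCm38, Gencode release M21) that holds Reg3b, Reg3d, Reg3a, Reg2, Reg1 and Reg3g in that order and no other annotated gene. Reg3d is not one of the members and is given for comparison only. Reg3b (ENSMUSG00000071356.7) spans chr6:78370657-78373466 on the plus strand and Reg3a (ENSMUSG00000079516.2) spans chr6:78380709-78383827 on the plus strand. Reg1 (ENSMUSG00000059654.7) spans chr6:78422711-78428667 on the plus strand. Reg3g (ENSMUSG00000030017.2) spans chr6:78466269-78468872 on the minus strand. Reg2 (ENSMUSG00000023140.4) lies between Reg3a and Reg1, and Reg4 (ENSMUSG00000027876.4) lies apart from the block on chromosome 3 (chr3:98222156-98236748, plus strand). All 6 members are protein-coding. The coding sequences of Reg3b and Reg3g were 76.0% identical, those of Reg1 and Reg2 78.8%, and those of Reg3a and Reg3b 73.9%. Reg4 was the most distant, at 49.6% to 54.6% identity to the other 5. Of the windows of 31 bases along the longest coding transcripts, only 5 of 753 in Reg3b and 5 of 741 in Reg3g also occurred in another Reg gene, and 0 windows of 100 bases did.

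The stretch before the transcription start is shown for the 4 members that changed most in tumoroids, because they lie in 1 block and their RNA moved in opposite directions. The sequences (RefSeq, GRCm38.p6, all 7 Reg genes matched) run 5′ to 3′ on the strand of each gene, from 150 to 20 bases before the RefSeq start (to 24 bases before it for Reg1), at chr6:78370735-78370865 (plus) for Reg3b, chr6:78468894-78469024 (minus) for Reg3g, chr6:78425833-78425959 (plus) for Reg1 and chr6:78380559-78380689 (plus) for Reg3a. The stretches of Reg1 and Reg3b lie inside the Gencode spans of these genes given above. Their RefSeq starts are thus downstream of the first Gencode start. Capitals mark TATAAA, the TATA box, and the 9-base STAT element, TTC and GAA 3 bases apart.
Reg3b: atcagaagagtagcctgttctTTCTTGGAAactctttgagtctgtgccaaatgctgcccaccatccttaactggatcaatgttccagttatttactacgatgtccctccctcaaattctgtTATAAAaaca
Reg3g: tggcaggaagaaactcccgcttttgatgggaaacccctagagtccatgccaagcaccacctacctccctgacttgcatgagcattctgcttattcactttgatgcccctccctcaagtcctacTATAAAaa
Reg1: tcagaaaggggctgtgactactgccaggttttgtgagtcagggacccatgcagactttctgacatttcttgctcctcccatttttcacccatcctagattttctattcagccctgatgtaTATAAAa
Reg3a: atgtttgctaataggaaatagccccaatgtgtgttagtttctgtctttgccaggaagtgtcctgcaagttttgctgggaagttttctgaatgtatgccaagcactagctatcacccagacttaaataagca

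Both motifs were searched on both strands in the 250 bases before the RefSeq start of the 7 Reg genes. They did not overlap in any of these windows. The window of Reg2 also lies inside its Gencode span. A TATA box on the gene strand, between 45 and 20 bases before the start, was present in Reg1, Reg2, Reg3b and Reg3g, against 2.14% of 32851 mouse promoters. The windows of Reg3a, Reg4 and Reg3d did not hold it there, and that of Reg3g held 1 more copy on the other strand. The STAT element was present in Reg3b, 129 bases before the start, and in Reg3d, 238 bases before it, against 7.02% of promoters. The 2 members that rose in tumoroids had the most similar windows of the family, at 68.4% identity over 253 aligned columns with a shared run of 20 bases, where the other pairs were 43.9% to 54.4% identical. A match of letters is a description of the sequence and shows no binding.

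The members differed widely in level within the same libraries. By TPM, Reg1 was the highest member in all 6 organoid libraries. It had 1145 ± 189 TPM (SD, n = 3) in the T-cM-titled group and 3968 ± 2019 TPM in the WT-cM-titled group, and by its mean it was the 20th highest gene of the WT-cM-titled group. Reg4 was second in the 3 T-cM-titled libraries and Reg3a in the 3 WT-cM-titled ones, so that these members changed places between the organoid groups. Reg3b and Reg3g were the lowest of the 5 measurable members in organoids, at 51.0 to 197 TPM. In tumoroids Reg3b was the highest member in all 3 libraries, at 4042, 15700.4 and 2389 TPM, and the 5th highest of all genes by mean TPM. It had been 1045th in WT-cM-titled organoids. Its share of the family's summed TPM was 69.2%, 86.7% and 52.3% in tumoroids 1, 2 and 3, against at most 5.34% in organoids.

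**Figure D1:**
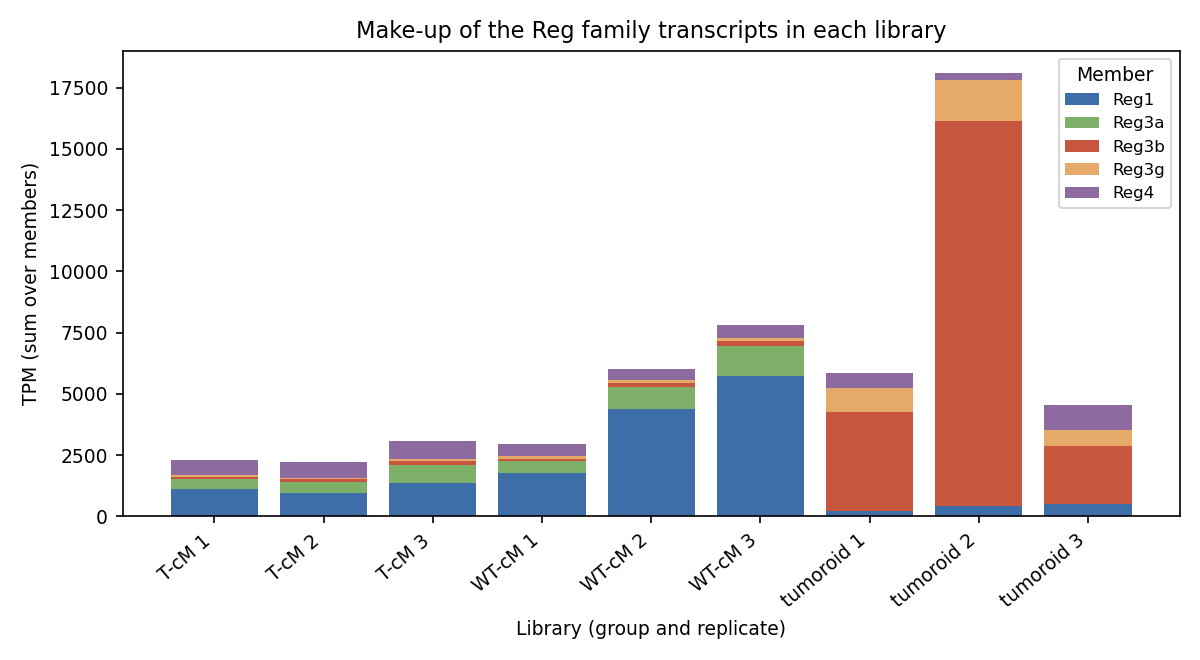
Stacked bars give the TPM of the 5 measurable Reg members in each of the 9 libraries (group and replicate on the x axis, Reg2 too low to draw). Reg1 makes up 43.6% to 73.3% of the bar in organoids and Reg3b 52.3% to 86.7% in tumoroids.

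The order of Reg3b and Reg3g depends on the length used. The deposited TPM fit a length for Reg3g of 1.85 times that of Reg3b, the ratio of their merged exons (2114 and 1142 bases), while their longest coding transcripts are of similar length (771 and 783 bases). The merged exons of Reg3g include a transcript with a retained intron. By TPM Reg3b was above Reg3g in 4 of 6 organoid libraries, and by CPM per kilobase of coding transcript in 1 of 6. In the tumoroids Reg3b was above Reg3g on both scales in all 3 libraries, with TPM ratios of 4.22, 9.34 and 3.66. The ratio of Reg3a to Reg3b separated the 2 kinds of culture by TPM. It was 4.54 to 7.25 in organoids and 0.00112 to 0.00160 in tumoroids.

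The first comparison asked which members differed between organoids in T-cM and WT-cM, as titled. Reg1, Reg3a, Reg3b and Reg3g were lower and Reg4 higher in T-cM-titled organoids, each in all 3 pairs. Of all tested genes 22.3% were lower and 41.2% moved the same way in all 3 pairs. Reg1 was at 392, 357 and 511 CPM in T-cM-titled libraries 1, 2 and 3, and at 609, 1657 and 2270.1 CPM in the WT-cM-titled libraries with the same numbers. The groups did not overlap. WT-cM-titled library 1 was the lowest of its group, so that the difference within pair 1 was 1.55-fold against 4.64-fold and 4.45-fold in pairs 2 and 3. The log2 fold change of Reg1 was −1.67 (SE 0.16, adjusted p = 1.9e-08), the only one of the family past both thresholds of a call, namely a fold change over 1 on the log2 scale in either direction and an adjusted p below 0.05. Of all tested genes 1.10% were called in this comparison, 0.673% as higher and 0.432% as lower.

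Reg3g, which binds Gram-positive bacteria, was at 71.8, 43.8 and 61.3 CPM in T-cM-titled and 103, 85.0 and 124 CPM in WT-cM-titled libraries. Every T-cM-titled library lay below every WT-cM-titled one. Its log2 fold change was −0.81 (SE 0.09, adjusted p = 4.4e-07). Reg3b, its closest relative, was at 25.3, 43.4 and 79.1 CPM against 41.1, 79.6 and 98.3 CPM. The groups overlapped, since T-cM-titled libraries 2 and 3 lay above WT-cM-titled library 1, and within pairs the log2 fold change was −0.61 (SE 0.10, adjusted p = 1.1e-04). Reg3a was at 132, 150.4 and 259.6 CPM against 153, 306 and 443 CPM, again with overlap and with the smallest difference in pair 1. Its log2 fold change was −0.66 (SE 0.10, adjusted p = 2.4e-05).

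Reg4 moved the other way and by nearly the same amount in each pair. It was at 242, 268 and 326 CPM in T-cM-titled and 179, 193 and 239.8 CPM in WT-cM-titled libraries. The groups did not overlap, and the log2 ratios within pairs 1, 2 and 3 were 0.43, 0.47 and 0.44. The fitted log2 fold change was 0.46 (SE 0.07, adjusted p = 9.4e-05). The 5 tested members had an adjusted p under 0.05, 4 of them lower and 1 higher, where 10.1% of all tested genes did (5.05% lower and 5.03% higher). Groups did not overlap for Reg1, Reg3g and Reg4, against 10.4% of all tested genes (5.28% lower and 5.12% higher). The median log2 fold change of the 5 members was −0.66, and that of all tested genes was 0.00. The remaining member, Reg2, had 0 to 2 counts in each organoid library, at or under the detection limit, and was not tested.

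**Figure D2:**
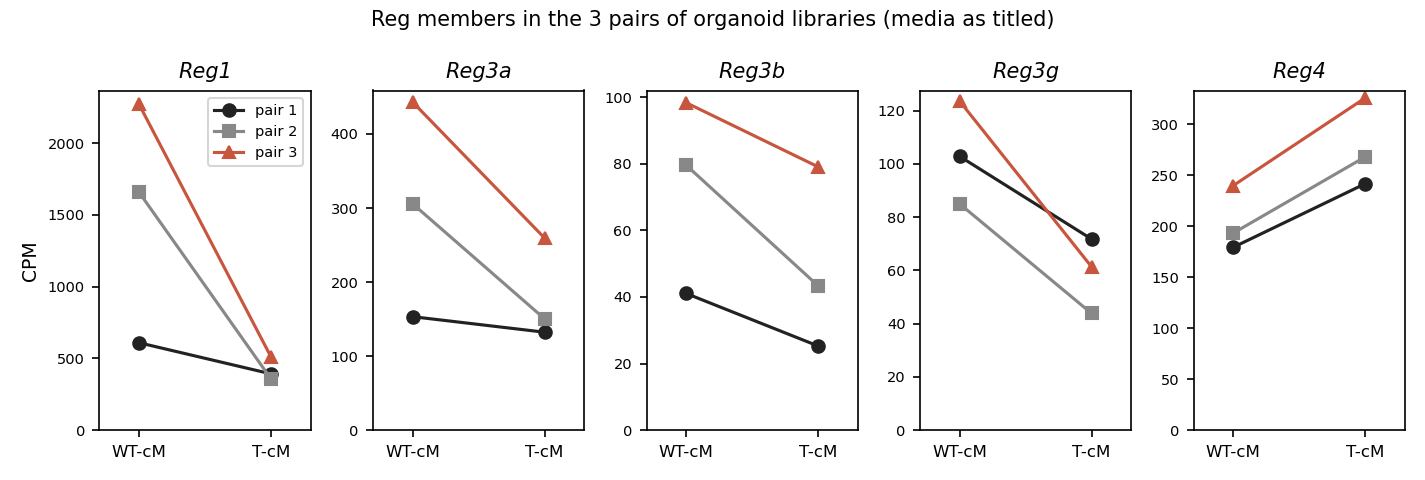
Each panel shows 1 member in CPM on its own linear axis, with a line for each of the 3 pairs of organoid libraries from WT-cM to T-cM as titled. Lines fall for Reg1, Reg3a, Reg3b and Reg3g and rise for Reg4, and that of Reg1 is flattest in pair 1.

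The call of Reg1 was lost without the pairing and without pair 2. Without the replicate block, 0 members and 0 of all tested genes were called, with 904 genes at an unadjusted p under 0.05, and the log2 fold change of Reg1 was −1.83 (adjusted p = 0.69). Without pair 2 it was −1.39 (adjusted p = 0.29), and 1 of all tested genes was called instead of 179. Without pair 1 it was −2.17, with 385 genes called, and without pair 3 −1.42, with 94, and Reg1 passed both times. The other 4 members too had no adjusted p under 0.05 without the block, without pair 2 or with limma on log2 TPM. Over the 14 alternatives run, the adjusted p of Reg1 ranged from 4.8e-149, without pair 1, where only 2 pairs set the spread, to 0.69, and its log2 fold change from −2.17 to −1.39.

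Markers of the cells that make these lectins moved in the same comparison. Of 7 Paneth cell markers, 5 were lower at an adjusted p under 0.05 and 0 passed the fold threshold, with summed levels of 4163 to 4831 CPM in T-cM-titled and 4542 to 5888 CPM in WT-cM-titled libraries. Of 8 enterocyte markers, 3 were lower and Alpi was higher at that adjusted p, and the sums overlapped (16361 to 24511 against 14866 to 29104 CPM). Of 8 enteroendocrine markers 4 were lower, and Gcg, the glucagon gene, was called lower (log2 fold change −1.11, SE 0.15, adjusted p = 1.0e-05, lost in 6 of 14 alternatives, among them without pair 2 at −0.92 and without pair 3 at −0.87), whereas Reg4, known from these cells, was higher. At that adjusted p 2 of 5 crypt stem cell markers, Ascl2 and Smoc2, were lower, and so was 1 of 7 goblet markers, Spink4, in a list whose median was 0.06. Of the gastric markers Tff1 was called higher (log2 fold change 1.07, SE 0.33, adjusted p = 0.035). It had 9 to 59 counts in T-cM-titled and 5 to 26 in WT-cM-titled libraries, with overlapping groups, and was not called without the replicate block. Their part in the Reg differences was not tested.

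Of the genes of 2 pathways that induce Reg genes, 1 of 15 and 2 of 15 had an adjusted p under 0.05, and of the other secreted antimicrobial genes 6 of 19 did, beside 10.1% of all tested genes. Whether these shares differ was not tested. Of 15 genes of IL-22, IL-6 family and STAT3 signalling, 0 were called, and Il22ra1, which encodes the IL-22 receptor, was the 1 gene with an adjusted p under 0.05. Named after its values were seen, it was higher in T-cM-titled organoids, at 118 ± 29.5 against 71.9 ± 9.51 CPM (SD, n = 3), with a log2 fold change of 0.70 (SE 0.09, adjusted p = 4.1e-06), the opposite direction to Reg3b and Reg3g. Of 15 tested genes of microbial sensing, Tlr5, the receptor of bacterial flagellin, was called lower, at 0.419 against 1.58 CPM on average, with overlapping groups (log2 fold change −1.86, SE 0.40, adjusted p = 0.0026), and Nfkbia was higher at the adjusted p alone. Of 19 other secreted antimicrobial genes and their partners, Duox2, an oxidase that makes hydrogen peroxide, was called lower (log2 fold change −1.18, SE 0.22, adjusted p = 4.4e-04), and at the adjusted p alone Ang4, Itln1, Mptx2 and Pigr were lower too and Nos2 higher. Ang4, Itln1 and Mptx2 are also among the 7 Paneth markers. The call of Tlr5 was lost in 6 of 13 alternatives and that of Duox2 in 5 of 14. Without pair 2 they were −2.07 and −0.79 and neither passed, without pair 3 Tlr5 was −1.57 and did not pass, and without pair 1 Duox2 was −1.81 and passed. The medians of the 3 lists were 0.00, 0.05 and −0.44. Of 10 regulators of the secretory lineage 0 were called, and Dll1, a Notch ligand, was higher at the adjusted p alone (log2 fold change 0.75).

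The second comparison asked how tumoroids differed from WT-cM-titled organoids, and was repeated with T-cM-titled organoids. The tumoroid libraries are the same in both, so the results share them. The family split, with Reg3b and Reg3g higher, Reg1 and Reg3a lower and Reg4 not called. Each of the 5 tested members was above 1 TPM in all 9 libraries.

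**Figure D3:**
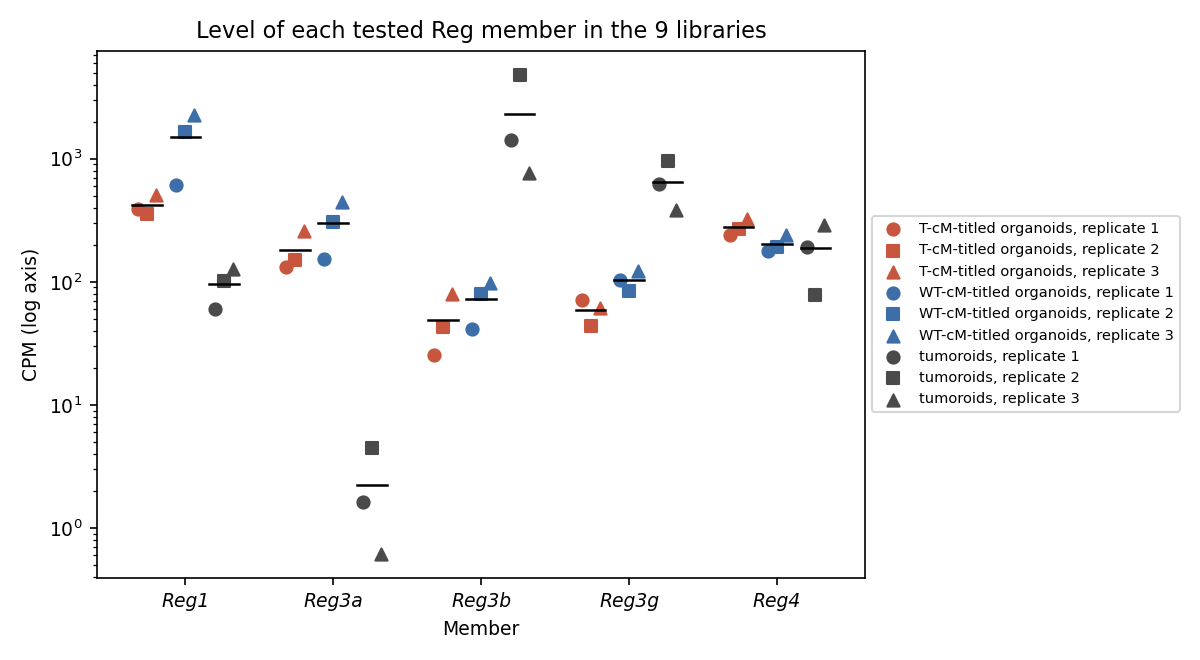
Points give the CPM (log axis) of each tested member in the 9 libraries, with shapes for replicates 1, 2 and 3, and black bars mark the mean of each group. Tumoroids lie above all organoids for Reg3b and Reg3g and below all organoids for Reg1 and Reg3a.

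Reg3b was at 1410 CPM in tumoroid 1, 4805 in tumoroid 2 and 762 in tumoroid 3, against at most 98.3 CPM in the 6 organoid libraries. Every tumoroid lay above every organoid library, and tumoroid 2 was far above the other tumoroids. Reads of Reg3b were 0.170%, 0.583% and 0.0903% of all counts in tumoroids 1, 2 and 3. The log2 fold change was 4.99 against WT-cM-titled organoids (SE 0.77, adjusted p = 7.3e-04), which is 31.9-fold, and 5.56 against the T-cM-titled group (SE 0.79, adjusted p = 4.5e-04). Without tumoroid 2 these values were 3.88 and 4.44. Reg3g was at 619, 952 and 386 CPM in tumoroids 1, 2 and 3, with the libraries in the same order as for Reg3b but over a narrower range, and against at most 124 CPM in organoids. Its log2 fold change was 2.65 (SE 0.34, adjusted p = 2.2e-04) against the WT-cM-titled group and 3.47 (SE 0.35, adjusted p = 6.4e-05) against the T-cM-titled group.

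Reg3a, which lies between these genes on the chromosome, moved the other way. It was at 1.63, 4.50 and 0.618 CPM in tumoroids 1, 2 and 3, on 36, 121 and 18 counts, whereas the organoid libraries held 2217 to 10009 counts. The log2 fold change was −7.06 against WT-cM-titled organoids (SE 0.75, adjusted p = 8.4e-05), or 133-fold lower, and −6.32 against the T-cM-titled group (SE 0.73, adjusted p = 1.3e-04). Tumoroid 2, highest for Reg3b, was also the highest of the 3 for Reg3a, and without it the values were −8.11 and −7.38. Reg1 was at 60.6, 101 and 126 CPM in tumoroids, all below the lowest organoid library at 357 CPM. Its log2 fold change was −3.98 (SE 0.49, adjusted p = 1.9e-04) against the WT-cM-titled group and −2.13 (SE 0.45, adjusted p = 0.0040) against the T-cM-titled group. Both organoid groups thus lay above the tumoroids for Reg1, with T-cM-titled organoids between the other 2 groups.

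Reg4 was at 192, 78.7 and 291 CPM in tumoroids 1, 2 and 3, and the groups overlapped. Tumoroid 2, the highest for Reg3b and Reg3g, was the lowest for Reg4. The log2 fold change was −0.12 against the WT-cM-titled group (SE 0.38, adjusted p = 0.82) and −0.57 against the T-cM-titled group (SE 0.38, adjusted p = 0.25). The sign against WT-cM-titled organoids was not stable over the alternatives. Without tumoroid 3 it was −1.06 in the latter contrast (adjusted p = 0.030) and passed as a call, and its adjusted p ranged from 0.030 to 0.60 over 17 alternatives. Reg2 had 0 counts in each tumoroid library, which allows up to 0.103 to 0.136 CPM there for counting error only. Reg3d, the neighbour that is no member, was at 1 to 5 counts per tumoroid and 8 to 41 per organoid library, with a log2 fold change of −3.59 (SE 0.64, adjusted p = 0.0016) against WT-cM-titled organoids.

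**Figure D4:**
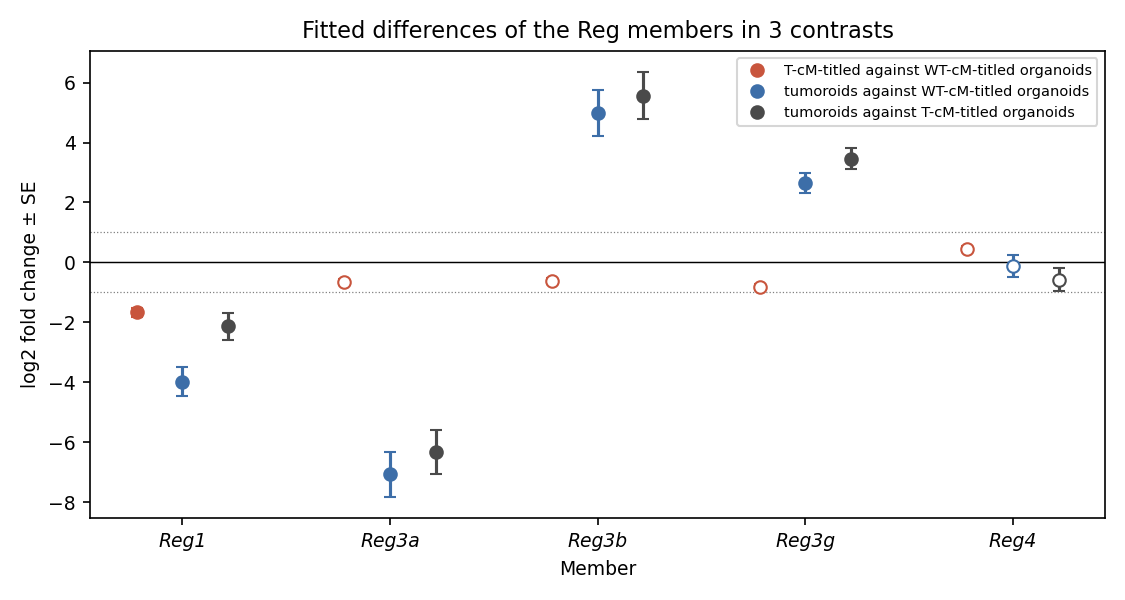
Points give the log2 fold change and bars its standard error for each tested member in 3 contrasts, filled where the gene was called, with dotted lines at −1 and 1. Values run from −7.06 for Reg3a to 5.56 for Reg3b.

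Of the 5 tested members 2 were called higher and 2 lower in tumoroids against WT-cM-titled organoids, where 29.8% of all tested genes were called, 18.2% higher and 11.6% lower. Against T-cM-titled organoids 2 were again called higher and 2 lower, with 31.2% of all tested genes called, 19.4% higher and 11.8% lower. At the adjusted p alone the same 4 members passed, where 41.9% of all tested genes did against WT-cM-titled organoids (23.4% higher and 18.5% lower) and 44.5% against the T-cM-titled group (25.3% higher and 19.2% lower). Groups did not overlap for these 4 members in either contrast, nor for 50.7% of all tested genes (28.2% higher and 22.5% lower) in the first and 53.9% (30.1% higher and 23.8% lower) in the second. The median log2 fold change of the members was −0.12 and −0.57, against 0.15 and 0.16 over all genes. When log2 TPM were tested with limma in place of counts with edgeR (pseudocount 1), the median of all genes moved to 0.52 and 0.51, and 3997 genes were called higher and 1096 lower against WT-cM-titled organoids, in place of 2953 and 1881. The 4 members kept their direction and call, with Reg1 at −3.31.

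The tumoroids also differed in the markers of the cells that make Reg proteins. All 8 enterocyte markers were called lower against WT-cM-titled organoids, and 5 of 7 goblet cell markers were (summed levels 195 to 740 CPM in tumoroids and 2339 to 2484 in WT-cM-titled organoids). Of the 7 Paneth markers Lyz1, Defa17 and Defa24 were called lower and Mmp7 higher, and their sum was 2049, 242 and 1625 CPM in tumoroids 1, 2 and 3 against 4542 to 5888. Tumoroid 2 also had the lowest goblet sum (195 CPM, with 581 and 740.0 in tumoroids 1 and 3) and enteroendocrine sum (73.9 CPM, with 696 and 163). This library thus stood apart in secretory markers as well as in Reg3b and Reg4. Of 8 enteroendocrine markers 4 were called lower, and 4 of 5 crypt stem cell markers were called higher (sums of 488 to 655 against 82.0 to 314 CPM). The remaining stem cell marker, Olfm4, was lower on average and not called (log2 fold change −2.85, SE 1.26, adjusted p = 0.098). The immune markers Cd68 and Csf1r and the mesenchymal marker Acta2 were called higher, Acta2 with 4.03, 1.86 and 46.0 CPM and Csf1r with 2.72, 20.4 and 4.50 CPM in tumoroids 1, 2 and 3. Tumoroid 2, highest for Reg3b and Reg3g and lowest for Reg4, was thus highest for Csf1r and lowest for Acta2. Cd68 went another way, at 4.58, 5.58 and 20.5 CPM in tumoroids 1, 2 and 3, with the highest level in tumoroid 3. Markers of pancreas and stomach, where Reg genes are also expressed, were measured too. Of 6 pancreatic acinar markers, Amy2a5, Cpb1 and Pnlip were at 0 in all 9 libraries and Cpa1 at or under the detection limit, and the sum of the 6 was 19.9 to 44.2 CPM in tumoroids and 11.8 to 24.8 in organoids, with Cela1 called higher and Ctrb1 lower. The 6 gastric markers summed to 12.2 to 26.4 CPM in tumoroids and at most 4.14 in organoids, with Muc5ac and Muc6 called higher and Tff1 lower. The part of these cells in the Reg differences was not tested.

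**Figure D5:**
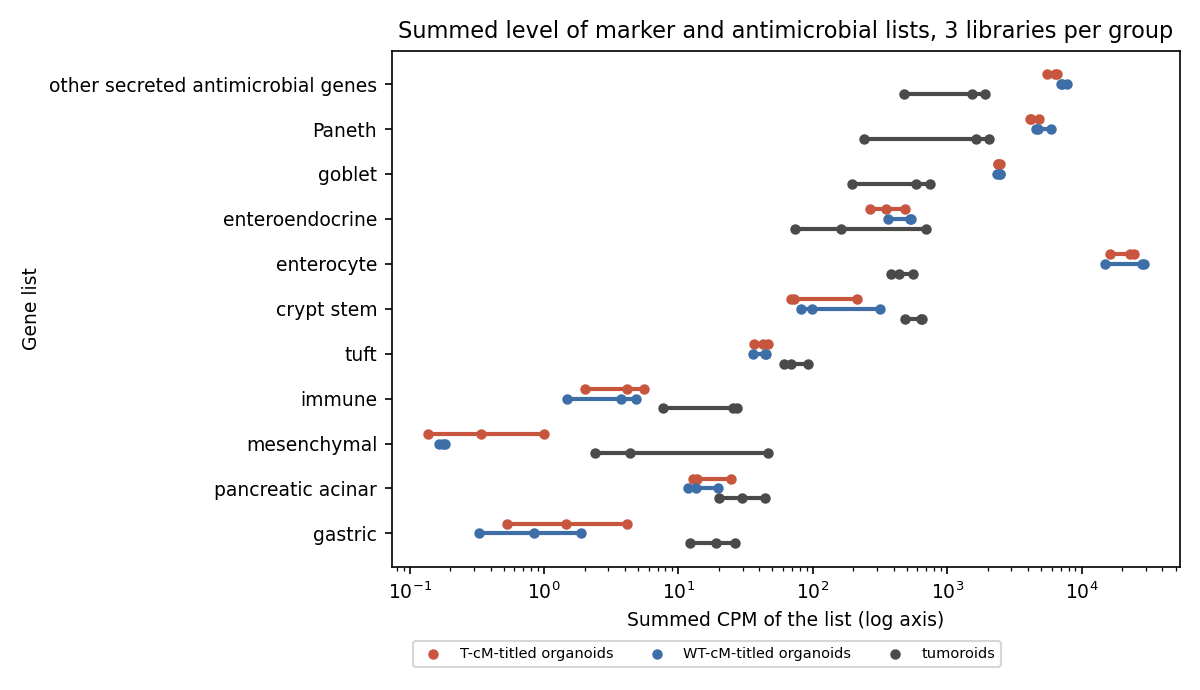
Lines span the lowest, median and highest summed CPM (log axis) of each gene list over the 3 libraries of a group. Enterocyte, goblet, Paneth and other antimicrobial lists lie lower in tumoroids, and crypt stem cell, tuft, immune, mesenchymal and gastric lists higher. Of the tuft markers Avil and Pou2f3 were called higher, while Dclk1 and Trpm5 were lower on average and not called.

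Of the other secreted antimicrobial genes, some moved with Reg3b and Reg3g and others with Reg1 and Reg3a. Their summed level was 478 to 1908 CPM in tumoroids, 7048 to 7826 in the WT-cM-titled group and 5547 to 6507 in the T-cM-titled group. Of 19 tested against WT-cM-titled organoids, Lcn2, Retnlb and Slpi were called higher and Lyz1, Lypd8, Pigr and Zg16 lower. In that contrast 29.8% of all tested genes were called, 18.2% higher and 11.6% lower. Whether the list differs from that share was not tested. Against T-cM-titled organoids 5 were called higher, those 3 with Duox2 and Duoxa2, and the same 4 lower, beside 31.2% of all tested genes. Retnlb was at 38.2, 0.744 and 0.206 CPM in tumoroids 1, 2 and 3 and Slpi at 0.861, 0.260 and 21.3 CPM, so that 1 library held most of each. Lcn2, which encodes an iron-scavenging protein, had at most 5 counts in any organoid library. It was at 11.6, 9.04 and 54.6 CPM in tumoroids 1, 2 and 3 (25.1 ± 25.6 CPM), highest in tumoroid 3. Pigr, the receptor that carries IgA across the epithelium, fell from 3105 CPM on average in WT-cM-titled organoids to 261 in tumoroids (log2 fold change −3.57, SE 0.43, adjusted p = 1.8e-04, and −4.17 without tumoroid 1). Lypd8, which keeps flagellated bacteria at a distance in the colon, had a log2 fold change of −3.88 (SE 0.23, adjusted p = 5.5e-06). Zg16, a lectin of goblet cells that binds Gram-positive bacteria, had one of −4.27 (SE 0.63, adjusted p = 5.6e-04). The median of the list was −0.02 against WT-cM-titled and 0.37 against T-cM-titled organoids, beside 0.15 and 0.16 over all genes.

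Several receptor genes of the IL-6 family were higher in tumoroids. Of the 15 genes of the IL-22, IL-6 family and STAT3 list, 6 were called higher and Il10rb and Il18 lower against WT-cM-titled organoids. Of all tested genes 18.2% were called higher and 11.6% lower there. At the adjusted p alone Il11ra1 was higher and the kinase genes Jak2 and Tyk2 were lower. Stat3 itself was not called (log2 fold change 0.29, SE 0.21, adjusted p = 0.30). Lifr, the receptor of leukaemia inhibitory factor, had at most 3 counts in any organoid library and was at 28.9 ± 17.2 CPM in tumoroids (SD, n = 3, adjusted p = 4.2e-05). Il6ra and Il6st, whose products form the IL-6 receptor, had log2 fold changes of 3.85 (SE 0.57, adjusted p = 5.7e-04) and 2.34 (SE 0.35, adjusted p = 6.3e-04). Fut2, a fucosyltransferase that IL-22 induces in the gut, had one of 5.51 (SE 0.58, adjusted p = 7.8e-05) and of 4.74 without tumoroid 3. Osmr, at 0 in all 6 organoid libraries and 3.08 to 21.2 CPM in tumoroids, and Socs3 were the other 2 called higher. Il22ra1 was at 36.6 ± 25.4 CPM in tumoroids and was called lower against T-cM-titled organoids (log2 fold change −1.68, SE 0.42, adjusted p = 0.0095) but not against WT-cM-titled ones (−0.97, adjusted p = 0.086). Without tumoroid 2 these values were −2.43 and −1.72, and both passed as calls. Against T-cM-titled organoids 6 genes of the list were called higher, with Il11ra1 in place of Socs3, and Il22ra1, Il10rb and Il18 lower. The median of the list was 0.29 against WT-cM-titled organoids.

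Of 15 tested microbial sensing genes, Tlr4, Tlr2, Tlr1, Nod2 and Rela were called higher and Ticam1 lower against WT-cM-titled organoids. Of all tested genes 18.2% were called higher and 11.6% lower in this contrast. Tlr4, the receptor of lipopolysaccharide, was at 37.7 ± 10.8 CPM in tumoroids and at 0 to 6 counts in each organoid library (adjusted p = 2.7e-05). Tlr2, a receptor of bacterial lipoproteins, was at 3.17 ± 1.40 CPM and at 1 to 6 counts. Against T-cM-titled organoids 5 were higher, with Tlr5 in place of Rela, and Ticam1 was lower again. Extl3, which encodes a glycosyltransferase proposed as a receptor of Reg proteins, was at 64.8 CPM on average in tumoroids and 37.1 in the WT-cM-titled group. Its difference of 0.80 on the log2 scale (SE 0.18, adjusted p = 0.0049) did not reach the fold threshold. Of 10 regulators of the secretory lineage, Sox9 and Neurog3 were called higher and Spdef, Dll1 and Atoh1 lower in both contrasts. The median of the sensing list was 0.57 and that of the secretory regulators −0.51 against WT-cM-titled organoids.

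The genes whose profile over the 9 libraries was most like each member were found by the root mean square difference of mean-centred log2 CPM, among 10523 genes with a mean of at least 5 CPM. For Reg3a they were Smlr1 (0.27), Apoc3, which encodes an apolipoprotein of enterocytes (0.29), and Slc2a7, which encodes a sugar transporter (0.38). For Reg3g they were Fndc10 (0.25), Zdhhc1 (0.35) and Bmyc (0.35), and for Reg3b Rnf208 (0.56), Timp3 (0.63) and Arhgef10 (0.66). For Reg4 they were Trpm5, an ion channel of tuft cells (0.26), Ccdc28b (0.29) and 2810408A11Rik (0.29), and for Reg1 Pm20d1 (0.56), Pipox (0.59) and Ndrg1 (0.59). The root mean square of the centred values themselves was 0.57 for Reg4, 1.49 for Reg3g, 1.67 for Reg1, 2.49 for Reg3b and 3.37 for Reg3a. How close these genes lie thus does not compare between members, and Reg4 varied least. Between members the smallest difference was that of Reg3b and Reg3g, at 1.14, and the largest that of Reg3a and Reg3b, at 5.62. The 9 libraries fall into organoids and tumoroids, and the measure was not split by kind of culture.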

How the data were processed

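Members and gene lists were chosen with earlier results of these data known. Reads were mapped by the authors with STAR (genome mm10), and raw counts per Gencode gene were deposited. The authors also deposited TPM, scaled for gene length and library size. The counter and its strand setting are not given in the sources used here. The libraries were prepared with a stranded kit.

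Genes with at least 1 TPM in at least 1 library were tested (16208 genes, 5 of the 6 members) in R 4.3.3. Raw counts were normalised with TMM and fitted with edgeR 4.0.16 (quasi-likelihood test, Benjamini-Hochberg adjustment), over the 6 organoid libraries with a block for the replicate number, or over 9 libraries without it for tumoroids. A call needed a log2 fold change beyond 1 in either direction at an adjusted p below 0.05. The SE was the log2 fold change divided by the root of F. The labels name 3 mice but do not say that equal numbers share a mouse. The study's own model has a sample term for these libraries, and the pairing was checked on deviations from the group means, which had r = 0.55, 0.34 and 0.55 across genes for the 3 same-numbered organoid pairs. Alternatives were limma 3.58.1 voom, DESeq2 1.42.0, other scaling, filters and thresholds, TPM with pseudocounts of 1 and 0.1, the block, and each replicate left out. The level per coding length was added after seeing the data. Sequences were compared with Biopython 1.88. The fits were tested on simulated data. Named genes were the members, Reg3d, the 3 closest profiles per member, up to 4 called genes per list and contrast with the smallest p, defining markers at 0, and the genes behind a count of 5 or fewer. Values given for Il22ra1, Extl3, Osmr, Stat3, Cd68 and Olfm4 were chosen after they were seen. Counting limits cover counting error only. The p-values of tumoroids rest on a spread shared by the 3 groups of 3 libraries, with the organoid libraries taken as unpaired. Groups came from the titles. Summed endothelial markers were at most 2.03 CPM, and tuft markers 35.7 to 91.3 CPM.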

Additional observations from a re-analysis of the deposited data

How the results depend on the processing

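Between the organoid groups, the 1 called member became 0 with limma on log2 TPM (pseudocount 1 or 0.1), which changed both the measure and the test, and 5 with no fold change threshold. The replicate numbers were taken to pair the samples, which the labels do not state, and without the replicate block it was 0. With 1 replicate left out the count ranged from 0 to 1. Over all genes 179 were called, against 104 with voom, 93 with DESeq2, 0 with limma on TPM, 0 without the block, and 385, 1 and 94 without replicates 1, 2 and 3. The direction of the 5 tested members stayed the same in all 14 alternatives. Reg1 lost its call in 4 of them, as TPM (−1.64 with either pseudocount, adjusted p = 0.28 and 0.30), without the block and without replicate 2. For DESeq2 the adjusted p of Reg3a was 0.051. In tumoroids the calls of Reg1, Reg3a, Reg3b and Reg3g held in all 17 alternatives of each contrast, the replicate block among them (4 called members in both). Reg4 against WT-cM-titled organoids turned from −0.12 to 0.23 as TPM with either pseudocount, 0.23 without tumoroid replicate 2 and 0.01 without WT-cM-titled replicate 3, with a range of −0.61 to 0.23 over the left-out replicates. Reg3b was above Reg3g in 4 of 6 organoid libraries by TPM and in 1 per coding length. Depth limits Reg2 and Reg3d, at most 2 and 41 counts per library. With TPM, 2690 genes (pseudocount 1) had an unadjusted p under 0.05. The cause was not tested.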
